A study of Mus musculus with 12 samples.

Results

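Medullary thymic epithelial cells form the centre of the thymus, and 10 genes that are widely used as their markers were read in thymic tumors, pre-leukemic thymus and normal thymus of mice. The genes are Aire, Fezf2, Krt5, Krt14, Krt17, Epcam, Cldn3, Cldn4, Tnfrsf11a and Cd40. A gene was measured where the annotation of the array gave a transcript cluster, the unit that stands for a gene, exactly 1 symbol. All 10 genes passed, each with 1 cluster, among 15223 genes named in this way.

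The tumors were thymic tumors of moribund female heterozygotes that carry the D573H substitution in Mcm4 (D573H/+), which encodes part of the replicative DNA helicase, and their age in days is not given. The pre-leukemic samples were whole thymus of female heterozygotes (D573H/+) taken at 21 days, and the wild-type samples were whole thymus of Mcm4 +/+ females of the same age. Each group held 4 pools of 3 organs, and each pool was read on 1 Affymetrix Mouse Exon 1.0 ST array, so no value belongs to a single animal. Disease, age and genotype all separate the tumors from wild-type thymus, and disease and age separate them from pre-leukemic thymus.

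Medullary epithelium displays proteins of other organs to newly made T cells, so that cells that react against the body are removed or turned into regulatory cells. Aire and Fezf2 are the nuclear factors that switch on many of these tissue-restricted genes. Medullary epithelium grows when thymocytes and other lymphoid cells engage its receptors, among them RANK (Tnfrsf11a) and CD40, which signal through NF-kappaB. In the mouse thymus, keratins 5 and 14 mark mostly medullary cells, keratins 8 and 18 mark the cortex, and claudins 3 and 4 mark the lineage that gives rise to Aire-positive cells.

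The 250 bases upstream of the listed transcription start are shown for 5 of these genes, since members with similar and with different changes in the tumors can then be set side by side. The windows come from RefSeq on GRCm38.p6, in which 8 of the 10 genes were found, and all read 5′ to 3′ on the strand of the gene. Capitals mark matches, on either strand, to TATAAA, to GGGCGG (a GC box), to TGANTCA (an AP-1 motif, which reads alike on both strands) or to the kappaB motif of NF-kappaB. Aire lies at chr10:78043611-78043860 (minus strand), and Krt5 lies at chr15:101712906-101713155 (minus strand). Krt14 lies at chr11:100206031-100206280 (minus strand), Epcam lies at chr17:87635729-87635978 (plus strand), and Cldn4 lies at chr5:134946935-134947184 (minus strand).
Aire: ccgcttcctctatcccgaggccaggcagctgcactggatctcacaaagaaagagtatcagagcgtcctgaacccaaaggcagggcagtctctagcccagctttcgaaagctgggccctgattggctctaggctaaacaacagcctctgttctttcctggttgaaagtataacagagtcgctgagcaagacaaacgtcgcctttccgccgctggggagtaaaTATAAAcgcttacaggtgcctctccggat
Krt5: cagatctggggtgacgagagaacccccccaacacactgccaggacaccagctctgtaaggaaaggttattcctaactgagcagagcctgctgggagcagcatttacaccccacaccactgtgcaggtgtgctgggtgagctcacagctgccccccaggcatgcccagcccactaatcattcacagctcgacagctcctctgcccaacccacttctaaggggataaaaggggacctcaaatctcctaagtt
Krt14: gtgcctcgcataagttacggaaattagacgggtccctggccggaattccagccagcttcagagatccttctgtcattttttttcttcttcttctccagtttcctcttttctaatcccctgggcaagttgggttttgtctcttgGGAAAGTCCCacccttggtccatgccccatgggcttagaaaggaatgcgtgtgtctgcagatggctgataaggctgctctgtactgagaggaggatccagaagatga
Epcam: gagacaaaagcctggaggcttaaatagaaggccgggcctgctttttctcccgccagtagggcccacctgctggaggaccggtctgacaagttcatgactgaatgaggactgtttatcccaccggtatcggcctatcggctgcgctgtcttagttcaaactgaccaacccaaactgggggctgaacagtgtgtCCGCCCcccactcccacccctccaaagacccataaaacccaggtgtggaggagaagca
Cldn4: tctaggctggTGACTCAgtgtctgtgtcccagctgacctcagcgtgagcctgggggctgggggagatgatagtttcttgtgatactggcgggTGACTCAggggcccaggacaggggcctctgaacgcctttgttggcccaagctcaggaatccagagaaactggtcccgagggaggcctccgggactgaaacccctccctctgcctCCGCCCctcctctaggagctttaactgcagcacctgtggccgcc

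The Aire window holds TATAAA 29 bases before the start, a word found in 12.4% of the 32851 such windows of the mouse RefSeq table. Krt14 has 1 kappaB match, which begins 107 bases before the start and which 5% of windows hold, whereas none of the 4 motifs matched in the Krt5 window. Epcam has 1 GC box and Cldn4 has another, a motif present in 32.7% of windows. The Cldn4 window also holds 2 AP-1 matches, of a kind present in 6.75% of windows, and no printed match overlapped another. A match in these letters is a description and was not tied to binding or to the values below.

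Values are the deposited normalized intensities on a log2 scale, on which a difference of 1 is a doubling. Between replicates, correlations across clusters were 0.983 to 0.996, any pair of them had the same value at no more than 0.028% of clusters, and array medians lay between 186 and 210 intensity units. The middle spread of an array, from its 25th to its 75th percentile, ran from 2.75 to 3.17 in tumors, 2.56 to 3.07 in pre-leukemic thymus and 2.84 to 3.08 in wild-type thymus. As a guide to the dim end of the scale, 758 olfactory receptor genes had a median of 4.71 and a 95th percentile of 6.84 over all arrays. The members lay above this percentile of their own array on all 4 pre-leukemic and all 4 wild-type arrays, Cldn3 and Tnfrsf11a only by little. On the tumor arrays, Epcam and Cd40 passed it on 1 of 4 arrays, Fezf2, Krt17 and Tnfrsf11a on 3 of 4, and the other members on 4 of 4. Differences of genes this dim are compressed by background signal.

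The comparison of tumors with wild-type thymus, part of the design of the series, addresses what sets the tumors apart from normal tissue. Both nuclear factors, all 3 keratins, Epcam and Cd40 fell in tumors, while Cldn3, Cldn4 and Tnfrsf11a did not pass the test. The 7 falls ran from 1.67-fold for Aire to 6.35-fold for Krt17. In each of these 7 genes, every tumor array lay below every wild-type array. Genes were called at an adjusted p under 0.05 in limma with Benjamini-Hochberg adjustment over all 17829 clusters. By this rule 14.5% of all clusters were called lower in tumors, and 15.7% had all tumor values below all wild-type values. In such whole-tissue RNA, fewer cells of a type and less RNA per cell cannot be told apart.

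**Figure D1:**
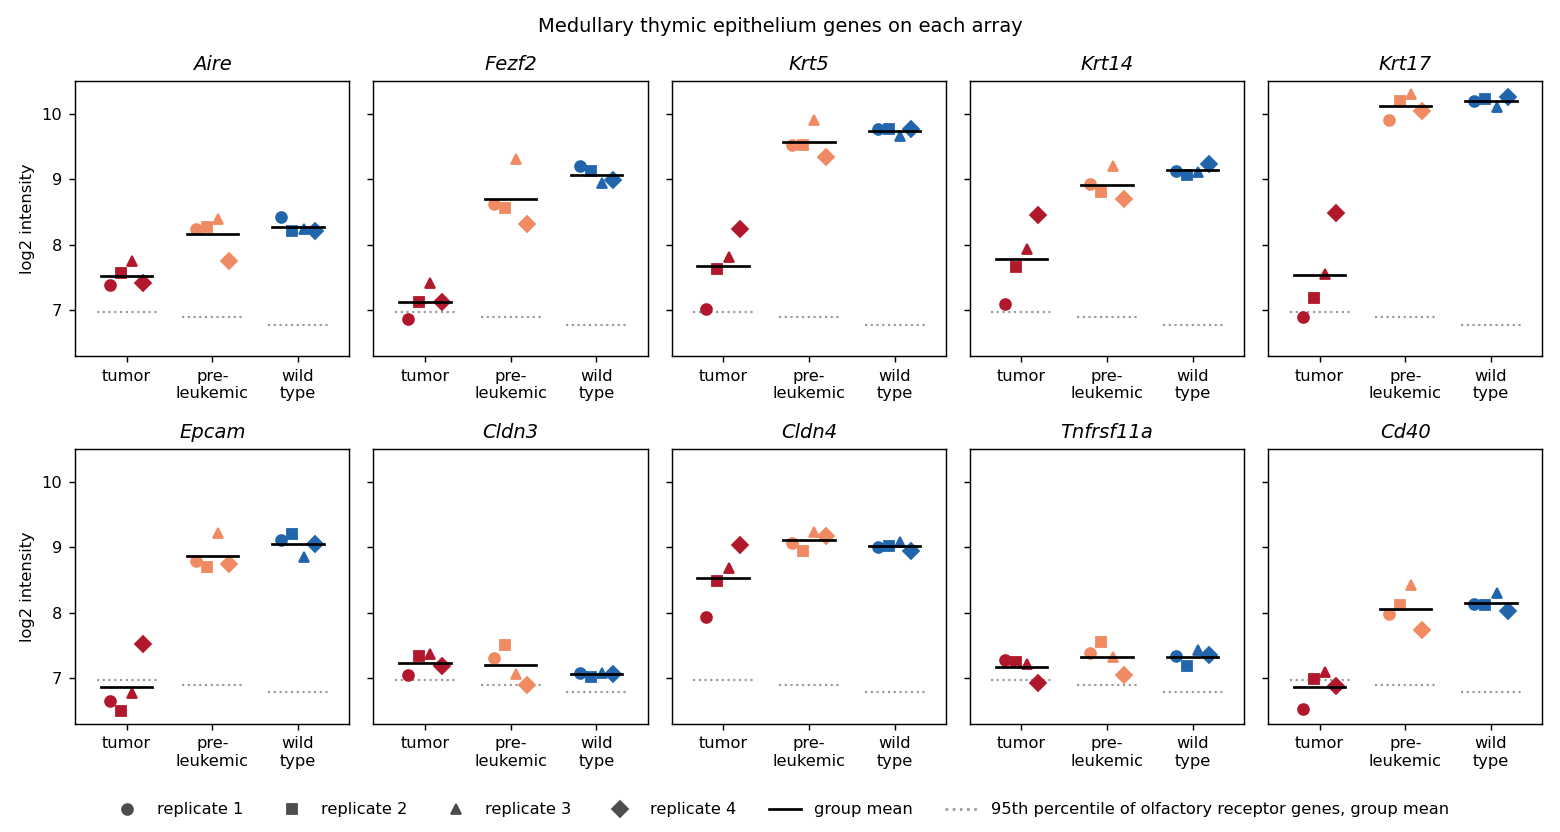
Log2 intensity of the 10 genes (1 panel each, vertical axis) on 12 arrays, 4 each of tumor, pre-leukemic and wild-type thymus from left to right, with a marker shape per replicate and a line at the group mean. Tumor values of Krt17 lie between 6.89 and 8.48, below the wild-type values of 10.11 to 10.26, whereas those of Cldn3, Cldn4 and Tnfrsf11a overlap the other groups.

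The transcriptional regulators are described first. Aire, whose product releases stalled RNA polymerase at tissue-restricted genes, read 7.38, 7.57, 7.75 and 7.41 on the tumor arrays, against 8.42, 8.22, 8.24 and 8.20 on the wild-type arrays. No tumor array reached the lowest wild-type array. The log2 difference was -0.74 ± 0.10 (SE, n = 4 each, adjusted p in limma 0.000614), the smallest of the 7 falls. Fezf2, a zinc-finger factor that drives an Aire-independent set of self-antigens, read 6.87, 7.12, 7.41 and 7.12 in tumors, against 9.20, 9.12, 8.95 and 8.99 in wild-type thymus. It was 3.82-fold lower, with a log2 difference of -1.93 ± 0.12 (SE, n = 4 each) and an adjusted p in limma of 9.94e-06, the smallest among the members. The 95% interval of the difference was -0.97 to -0.52 for Aire and -2.20 to -1.67 for Fezf2.

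The keratins form the filaments of stratified and medullary epithelium, keratin 5 pairing with keratin 14. Krt5 read 7.02, 7.62, 7.82 and 8.24 in tumors, against 9.78, 9.77, 9.67 and 9.77 in wild-type thymus. Krt14, its partner, read 7.10, 7.66, 7.94 and 8.45 in tumors, against 9.12, 9.07, 9.11 and 9.24 in wild-type thymus. Krt17, a keratin of basal and stressed epithelium, read 6.89, 7.19, 7.55 and 8.48 in tumors, against 10.20, 10.23, 10.11 and 10.26 in wild-type thymus. The wild-type pools were nearly level in all 3 genes, while the tumors were spread over more than 1 log2 unit and did not reach them. Tumor SDs were 0.51 for Krt5, 0.56 for Krt14 and 0.69 for Krt17, against 0.05, 0.07 and 0.06 in wild-type thymus. The differences were -2.07 ± 0.22 for Krt5, -1.35 ± 0.24 for Krt14 and -2.67 ± 0.29 for Krt17 (SE, n = 4 each), with adjusted p in limma of 0.000162, 0.00265 and 0.000195. Krt14 lies with Krt16 and Krt17 in the keratin cluster of chromosome 11, and Krt5 lies on chromosome 15. Krt16, from the list of other epithelial genes, fell by 0.37 (adjusted p in limma 0.0234).

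Epcam, the adhesion molecule used to sort thymic epithelium, read 6.64, 6.49, 6.77 and 7.52 in tumors, against 9.10, 9.20, 8.84 and 9.04 in wild-type thymus. It was 4.57-fold lower, a difference of -2.19 ± 0.20 (SE, n = 4 each, adjusted p in limma 8.86e-05), and only the fourth tumor array lay above the olfactory guide level. Neither of the tight-junction claudins passed the test. Cldn3 read 7.04, 7.33, 7.37 and 7.18 in tumors, against 7.07, 7.01, 7.08 and 7.06 in wild-type thymus, so that 3 of 4 tumor arrays lay above all wild-type arrays and 1 lay within their range. Its difference was 0.18 with a 95% interval of -0.01 to 0.37 (adjusted p in limma 0.149), and under quantile normalization it was called higher at 0.23 (adjusted p 0.0108). Without the first tumor array it was also called higher, at 0.24 (adjusted p 0.0367). Cldn3 lay little above the olfactory guide level in wild-type thymus (6.59 to 6.87 on those arrays). A fall as large as that of Epcam might therefore not be seen in full for Cldn3.

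Cldn4, the neighbour of Cldn3 on chromosome 5, read 7.94, 8.49, 8.68 and 9.03 in tumors, against 9.001, 9.02, 9.08 and 8.95 in wild-type thymus. The fourth tumor array lay inside the wild-type range and the other tumor arrays below it. The difference was -0.48 with a 95% interval of -0.92 to -0.04, which leaves out 0, but the adjusted p in limma was 0.0968. Without the fourth tumor array Cldn4 was called lower, at -0.65 (adjusted p 0.0210).

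Of the receptors, only Cd40 was called. Cd40, the receptor for CD40 ligand, which B cells and dendritic cells also carry, read 6.52, 6.98, 7.09 and 6.88 in tumors, against 8.14, 8.12, 8.30 and 8.03 in wild-type thymus. It was 2.42-fold lower, a difference of -1.28 ± 0.12 (SE, n = 4 each, adjusted p in limma 0.000114). Tnfrsf11a, the receptor for RANK ligand, read 7.27, 7.24, 7.21 and 6.93 in tumors, against 7.34, 7.19, 7.43 and 7.35 in wild-type thymus. Its groups overlapped, and its difference of -0.16 had a 95% interval of -0.38 to 0.05 (adjusted p in limma 0.230). Its wild-type values lay little above the olfactory guide level of those arrays (6.59 to 6.87). A fall as large as that of Cd40 might therefore not be seen in full.

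The 7 calls kept their direction and their side of the threshold when any single array was left out. The series' criterion adds a posterior of more than 95%, and with the posterior computed by limma Aire (92.1%) and Krt14 (54.6%) fell short, which left 5 of the 7 genes.

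**Figure D2:**
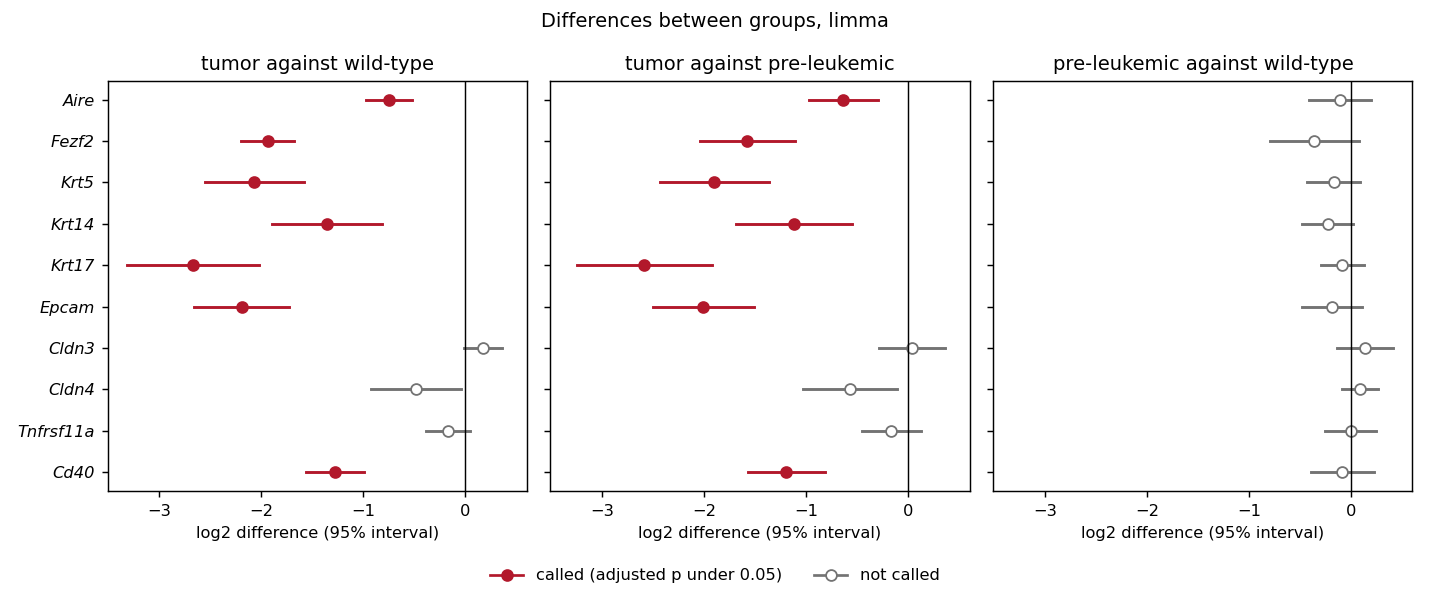
Log2 difference (horizontal axis) of each of the 10 genes in 3 comparisons, as points with 95% confidence intervals from limma, and filled where the adjusted p was under 0.05. Tumor against wild-type thymus and tumor against pre-leukemic thymus each hold 7 filled points left of 0, and pre-leukemic against wild-type thymus holds none.

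Tumors were next set against pre-leukemic thymus, which has the same genotype. The same 7 genes fell, and again all tumor arrays lay below all pre-leukemic arrays. Of all clusters, 8.27% were called lower in tumors in this comparison, and 10.2% were lower with no overlap. The comparison shares the tumor arrays with the preceding one, so the values of each are only given side by side. Krt17 differed by -2.58 ± 0.29 and Epcam by -2.01 ± 0.22 (SE, n = 4 each), with adjusted p in limma of 0.000629 and 0.00049. Krt5 differed by -1.90 ± 0.24, Fezf2 by -1.58 ± 0.21, Cd40 by -1.19 ± 0.17 and Krt14 by -1.12 ± 0.25 (SE, n = 4 each), with adjusted p in limma between 0.000959 and 0.0165. By the posterior criterion Krt5, Krt17 and Epcam remained of these 7, while Fezf2 (94.9%), Cd40 (90.8%), Krt14 (21.4%) and Aire (16.6%) fell short.

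Aire differed by -0.64 ± 0.15 between tumor and pre-leukemic thymus (SE, n = 4 each, adjusted p in limma 0.0202). This call was lost when the first tumor array (adjusted p 0.0534), the fourth tumor array (0.0612), the first pre-leukemic array (0.0623) or the second pre-leukemic array (0.0522) was left out. Cldn4 differed by -0.57 with a 95% interval of -1.03 to -0.11 (adjusted p in limma 0.0933) and was called without the fourth tumor array, at -0.74 (adjusted p 0.0349). Cldn3 differed by 0.04, with an interval of -0.28 to 0.36, and Tnfrsf11a by -0.16, with an interval of -0.45 to 0.12. When the 2 tumor and 2 pre-leukemic arrays with the narrowest spread of intensities were left out, a choice made after the data were seen, 2 arrays against 2 remained. The 7 differences then ran from -2.49 to -0.68, and none of them was called, with adjusted p in limma of 0.0559 to 0.227.

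Pre-leukemic thymus was compared with wild-type thymus at the same age, which asks what the heterozygous substitution does before a tumor is present. No member was called, and in none of the 10 did the groups separate. Across the array 0% of clusters were called by limma, 1112 clusters had an unadjusted p under 0.05, and 4.43% of clusters had groups with no overlap in either direction. Of the 10 members, 0 reached an unadjusted p under 0.05. The largest difference was that of Fezf2, which read 8.63, 8.57, 9.32 and 8.31 in pre-leukemic thymus, against 9.20, 9.12, 8.95 and 8.99 in wild-type thymus. On the third pre-leukemic array it lay above all wild-type arrays, and on the other 3 it lay below them. The difference was -0.36 with a 95% interval of -0.79 to 0.07 (adjusted p in limma 0.764).

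Krt14 read 8.92, 8.80, 9.21 and 8.70 in pre-leukemic thymus, against 9.12, 9.07, 9.11 and 9.24 in wild-type thymus, a difference of -0.23 with an interval of -0.48 to 0.02. Krt5 read 9.52, 9.53, 9.91 and 9.34 in pre-leukemic thymus, where only the third array lay above the wild-type values. Krt17 read 9.90, 10.20, 10.31 and 10.04 in pre-leukemic thymus, and its difference of -0.08 had an interval of -0.30 to 0.13. All 3 keratins were highest on the third pre-leukemic array. Epcam read 8.78, 8.70, 9.22 and 8.75 in pre-leukemic thymus, again highest on the third array, and differed by -0.18 with an interval of -0.48 to 0.11.

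Aire read 8.23, 8.26, 8.39 and 7.75 in pre-leukemic thymus, with the fourth array below all wild-type arrays. The difference of Aire was -0.11 with an interval of -0.41 to 0.19. Cd40 read 7.98, 8.11, 8.42 and 7.73 in pre-leukemic thymus and differed by -0.08 with an interval of -0.40 to 0.23. Without the fourth pre-leukemic array both Aire and Cd40 differed by 0.03, so their sign rests on that array. Cldn4 read 9.07, 8.94, 9.23 and 9.17 in pre-leukemic thymus and differed by 0.09, with an interval of -0.09 to 0.27. Cldn3 read 7.31, 7.50, 7.06 and 6.90 in pre-leukemic thymus, with an interval of -0.14 to 0.42 for its difference. Tnfrsf11a read 7.39, 7.56, 7.32 and 7.05, with an interval of -0.25 to 0.25. The tumor mean was the lowest of the 3 for 9 members, 7 of which were called, and pre-leukemic and wild-type thymus did not differ beyond their spread for any of the 10.

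The pre-leukemic pools differed among themselves more than the wild-type pools did. The third pre-leukemic array was the highest of its group for 8 of 10 members, against 28.5% of all named genes, and the fourth was the lowest for 7 of 10, against 36.5% of all named genes. Averaged over the 10 genes, pre-leukemic arrays read 8.57, 8.62, 8.84 and 8.37, and wild-type arrays read 8.74, 8.69, 8.68 and 8.69. This was not particular to the medullary genes, since the third array was also the highest for 8 of 10 thymocyte genes and 8 of 13 receptor and NF-kappaB pathway genes, whereas it was the highest for 0 of 15 cortical genes. On that array all 8 adipocyte genes and all 8 fibroblast genes were the lowest of the group. The adipocyte mean was 7.43 on it, against 8.91 to 9.66 on the other pre-leukemic arrays, and the fibroblast mean was 8.30, against 9.10 to 9.81. The part of these other tissues in the medullary values was not tested. Leaving out the third or the fourth pre-leukemic array left the count of called members at 0.

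**Figure D3:**
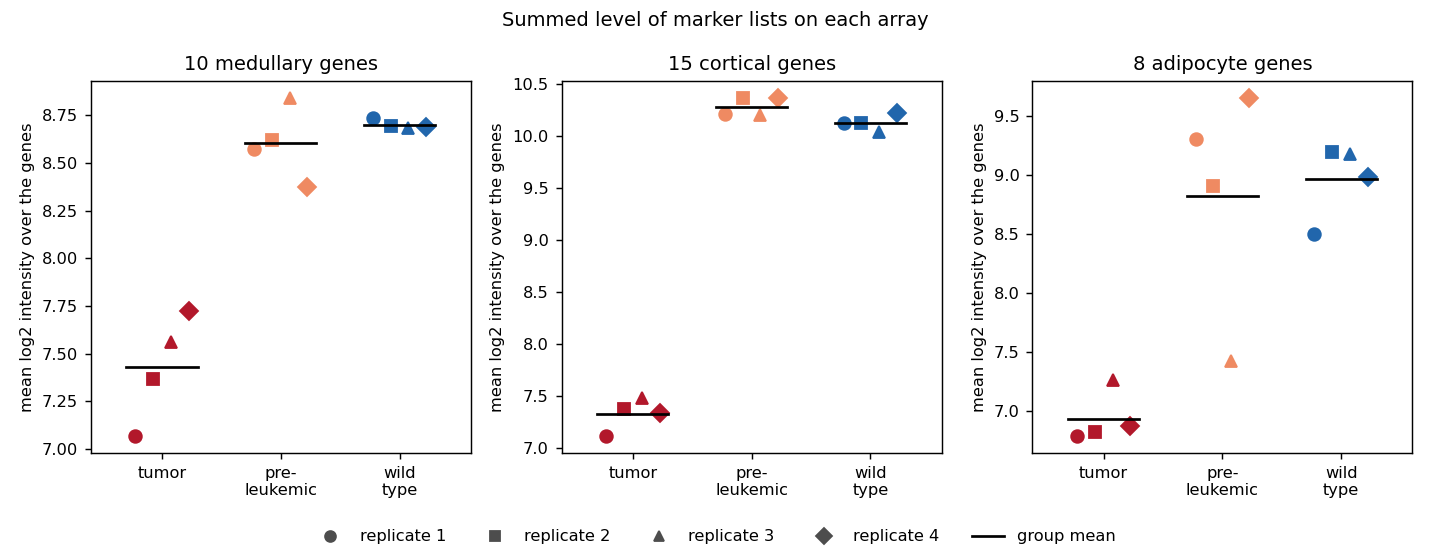
Mean log2 intensity over the 10 medullary, 15 cortical and 8 adipocyte genes (1 panel each, vertical axis) on each of 12 arrays, with tumor, pre-leukemic and wild-type thymus from left to right, a marker shape per replicate and a line at the group mean. The third pre-leukemic array has the highest medullary mean of its group (8.84) and the lowest adipocyte mean (7.43).

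The tumors also differed among themselves. Krt5, Krt14, Krt17 and Cldn4 all ranked the 4 tumor arrays alike, with the first lowest, then the second, the third and the fourth. Of all named genes, 2.11% had this order, and 40% of the members did. The order was itself picked out after the values of these members were seen, so the shares are a description and not a test. The first tumor array was the lowest of its group for 8 of 10 members, against 33.3% of all named genes, and the fourth was the highest for 5 of 10, against 18.4%. Other lists shared the low first array, which was the lowest for 8 of 10 other keratin and junction genes, 11 of 18 other medullary genes, 9 of 15 cortical genes, 7 of 12 other claudins and 5 of 8 endothelial genes. Averaged over the members, the tumors read 7.07, 7.37, 7.56 and 7.72. The cortical genes gave 7.11, 7.37, 7.47 and 7.33 on the same arrays, and 2 of the 15 had that order. These were the keratin genes Krt8 and Krt18, which read 7.78, 7.87, 8.54 and 9.36 for Krt8 and 6.39, 6.75, 7.29 and 8.16 for Krt18, and they were picked out after their values were seen. Replicate numbers carry no order in the design. The spread of intensities on the 4 arrays was 3.17, 2.75, 2.76 and 3.10, which is not in that order.

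To set the members beside a general epithelial gene, each was expressed as its log2 ratio to Epcam on the same array. Epcam did not pass the olfactory guide level on 3 of 4 tumor arrays, so a fall of Epcam below that level would not be seen in full. Each tumor ratio is therefore relative to the measured Epcam intensity, and both the size and the direction of a difference depend on it. Since Epcam itself fell by 2.19, 97% of all clusters were higher relative to it in tumors than in wild-type thymus with no overlap, and 96% were higher than in pre-leukemic thymus. Only 0.135% and 0.112% of clusters were lower with no overlap in these comparisons.

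Krt17 was the 1 member that was lower relative to measured Epcam, by -0.48 against wild-type and -0.58 against pre-leukemic thymus. Its groups did not overlap (two-sided exact permutation p = 0.0286 each, the smallest that 4 arrays against 4 allow), and a deeper fall of Epcam than the arrays could show would shrink or turn this difference. Krt5 differed by 0.12 against wild-type thymus (exact permutation p = 0.486), Fezf2 by 0.26 (p = 0.314) and Cd40 by 0.91 (p = 0.0571), and their groups overlapped. The ratios of Krt14, Aire, Cldn4, Tnfrsf11a and Cldn3 were higher in tumors by 0.84, 1.45, 1.71, 2.03 and 2.37 with no overlap, as were those of nearly all clusters, and nothing is read from them. The 9 ratios share the Epcam value of an array, and the p are unadjusted. Between pre-leukemic and wild-type thymus no ratio separated.

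**Figure D4:**
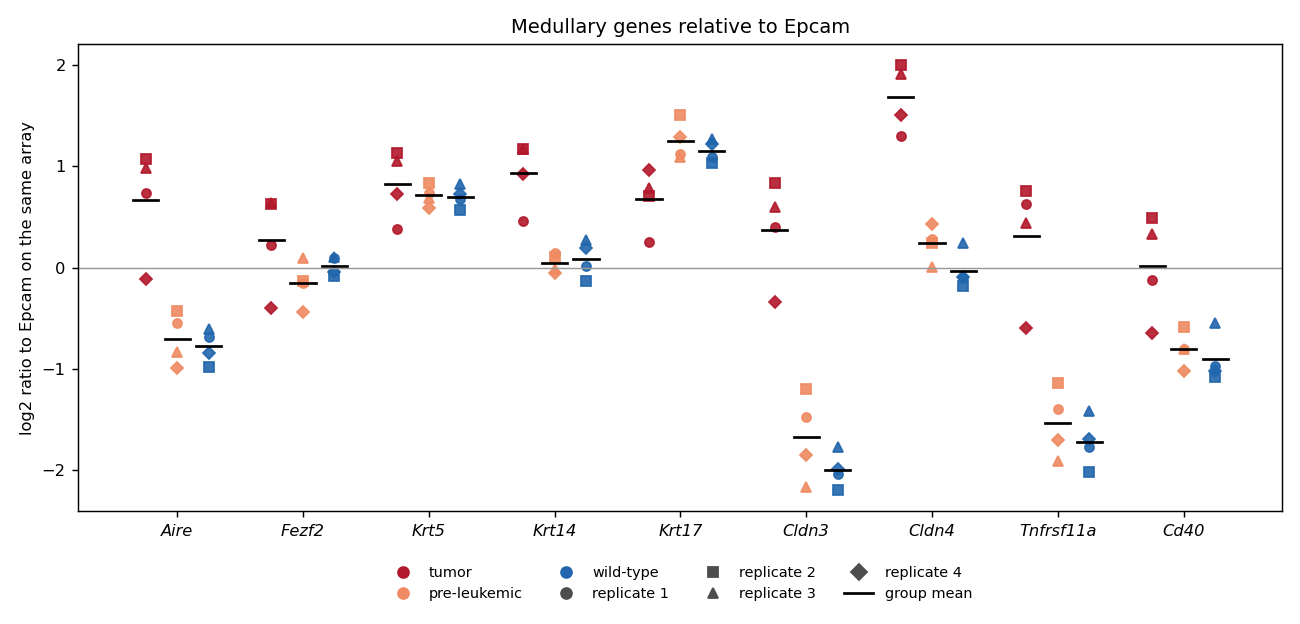
Log2 ratio to Epcam on the same array (vertical axis) of each of 9 genes (horizontal axis). Each gene shows 4 arrays each of tumor, pre-leukemic and wild-type thymus from left to right, with a line at the group mean. Relative to measured Epcam, Krt17 is lower in tumors than in both other groups, Krt5, Fezf2 and Cd40 overlap, and the other 5 are higher with no overlap, as are 97% of all clusters against wild-type thymus.

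Of 24 further medullary genes 18 were measured, and in tumors against wild-type thymus 8 fell, 0 rose and 10 did not pass the test. Their median difference was -0.35, beside -1.31 for the 10 members and 0.07 for all clusters, of which 14.5% were called lower. Among the 10 not called, Ivl, Krt15, Prdm1 and Trpm5 lay below the olfactory guide level on every wild-type array. Falls of these genes would not be seen in full, which limits what the count and the median of this list can show. Ccl22, a chemokine that draws T cells into contact with medullary cells, fell by 2.95. Cd86, a costimulatory ligand that dendritic cells also make, fell by 1.84, and Trp63, the factor that maintains epithelial progenitors, fell by 1.70. Adjusted p in limma for these 3 was at most 1.35e-05. Against pre-leukemic thymus 4 of the 18 fell and 0 rose, beside 8.27% of all clusters called lower.

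The receptor and NF-kappaB pathway, both ligands and genes that act after the receptors, was measured through 13 of 18 genes. Against wild-type thymus 6 fell, 0 rose and 7 did not pass, with a median of -0.25, beside 14.5% of all clusters called lower. The ligand of the CD40 receptor, Cd40lg, fell by 2.45. Ltb, a subunit of the lymphotoxin that acts on stroma, fell by 1.53, and Birc3, an adaptor of these receptors, fell by 0.99 (adjusted p of the 3 genes in limma 5.53e-06, 0.00147 and 6.93e-05). Tnfsf11, which encodes RANK ligand, differed by 0.05 (adjusted p in limma 0.823). Cd40lg and Cd40 were thus both lower in tumors, and neither Tnfsf11 nor its receptor Tnfrsf11a was called. Tnfrsf11a lay near the olfactory guide level in all groups, so the 2 pairs cannot be contrasted from these values. Against pre-leukemic thymus 5 of these 13 genes fell and 0 rose, beside 8.27% of all clusters called lower.

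Of 11 genes for partners of the Aire protein 9 were measured. In tumors against wild-type thymus 3 rose, 1 fell and 5 did not pass, with a median of 0.17, and 16.2% of all clusters were called higher in that comparison. Dnajc2, a chaperone, rose by 0.45, Chd4, a chromatin remodeller, by 0.43 and Jmjd6, a hydroxylase, by 0.27, while Sirt1, a deacetylase that acts on Aire, fell by 0.59 (adjusted p in limma at most 0.0430). These genes are expressed in many cell types. Of 18 tissue-restricted antigens 14 were measured, 3 fell and 0 rose, with a median of -0.22, beside 14.5% of all clusters called lower. Their mean log2 level was only 6.23 to 6.79 on the wild-type arrays, below the olfactory guide level of each array (6.59 to 6.87). Falls in this list would therefore not be seen in full. The milk protein genes Csn2 and Csn1s2a fell by 1.26 and 0.51, and Crp, a liver acute-phase gene, fell by 1.13 (adjusted p in limma at most 0.0104). Csn1s2a lay below the guide level in both groups, at 5.05 to 5.44 in tumors and 5.58 to 5.92 in wild-type thymus. Crp read 6.95 on the fourth wild-type array, against 5.79 to 6.13 on the other wild-type arrays. Csn2 read 7.99, 7.75, 8.06 and 8.35 in tumors, against 9.30, 9.56, 9.20 and 9.13 in wild-type thymus, with no overlap.

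Other epithelial genes fell in part, beside 14.5% of all clusters called lower in tumors against wild-type thymus. Of 12 other claudins measured, Cldn1 alone was called, with a difference of -2.44 (adjusted p in limma 3.37e-05), and the median was 0.04. Cldn1 read 6.17, 6.46, 6.44 and 7.05 in tumors, against 8.96, 9.26, 8.72 and 8.92 in wild-type thymus. The mean over the 12 other claudins was only 6.47 to 6.57 on the wild-type arrays, below the olfactory guide level of each array (6.59 to 6.87). Falls of the dim claudins would therefore not be seen in full. Of 10 other keratin and junction genes 4 fell and 0 rose, among them Cdh1, which encodes E-cadherin (-1.25), Esrp1, an epithelial splicing factor (-1.19), and Tjp1, which encodes the tight-junction scaffold ZO-1 (-0.81). Krt1, Krt13, Krt20, Elf3 and Ocln, which were not called, lay below the guide level on every wild-type array. Falls of these genes would not be seen in full either. All 15 genes of cortical epithelium fell, with a median of -2.71, led by Prss16 (-5.81), Tbata (-5.40) and Ccl25 (-5.32), which encode a thymus-specific protease, a regulator of thymic stroma and a chemokine for T-cell progenitors. The median of the 10 medullary genes was -1.31 in the same comparison. The cortical mean was 10.04 to 10.22 on the wild-type arrays and 7.11 to 7.47 on the tumor arrays. The medullary mean was 8.68 to 8.74 and 7.07 to 7.72 on the same arrays. The medullary genes thus started nearer to the dim end of the scale and had less room to fall. The difference between these lists was not tested, and the medians do not rank the loss of cortex and medulla.

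Markers of cells that share the medulla moved as well, and their part in the results was not tested. In tumors against wild-type thymus, 14.5% of all clusters were called lower and 16.2% higher. Of 8 measured B-cell genes 4 fell and 0 rose in tumors against wild-type thymus, among them Ms4a1 (-1.95), Cd79a (-1.44) and Cd79b (-1.18). Their mean log2 level ran from 6.38 to 6.88 in tumors and from 7.17 to 7.56 in wild-type thymus. Of 11 dendritic-cell and macrophage genes 5 fell, with Siglech at -1.65, Xcr1 at -0.75 and Flt3 at -0.74, and Cd68 rose by 0.64. The list did not move as a whole, since only 6 of its 11 differences were negative and their median was -0.13. The mean of that list ran from 7.30 to 7.85 in tumors and from 7.74 to 7.91 in wild-type thymus. Cd40 and Cd86 are made by these cells too.

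Of 10 thymocyte genes 7 fell and 0 rose, led by Rag2 (-2.12), Cd4 (-1.58) and Cd8a (-1.47). The shares of all clusters beside this and the next counts are again 14.5% called lower and 16.2% called higher. The thymocyte mean ran from 10.74 to 11.07 in tumors and from 11.50 to 11.59 in wild-type thymus. All 8 adipocyte genes fell, led by Ucp1 (-4.66), Adipoq (-2.66) and Lpl (-1.98), and their mean ran from 6.79 to 7.27 in tumors and from 8.51 to 9.20 in wild-type thymus. Among 8 fibroblast genes Pdgfrb rose by 2.39, while Lum (-1.56), Dcn (-1.13) and Col3a1 (-0.54) fell. Their mean ran from 8.79 to 9.41 in tumors and from 9.06 to 9.41 in wild-type thymus. Of 8 endothelial genes 4 fell, including Kdr (-0.90), Emcn (-0.90) and Cdh5 (-0.80), with a mean of 7.03 to 7.53 in tumors and 7.54 to 7.79 in wild-type thymus. Pth, the hormone of the parathyroid, which lies next to the thymus, fell by 1.55. It read 3.83 to 4.63 in tumors and 4.75 to 6.44 in wild-type thymus, below the olfactory guide level on every array of both groups. In pre-leukemic against wild-type thymus 0 genes of these 14 lists were called.

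The genes whose profiles lay nearest to 4 of the members over the 12 arrays were found by the mean absolute distance between profiles, each centred on its wild-type mean. For Aire they were Flt3, Tmem150c and Lad1, at distances of 0.079, 0.085 and 0.086 log2 units. For Krt5 they were H2-Aa (0.109), Trim29 (0.133) and Ctsw (0.162), and for Epcam they were Trim29 (0.157), H2-Aa (0.167) and Rag2 (0.182). For Cd40 they were Fermt1 (0.115), Fscn1 (0.124) and Klk8 (0.130). H2-Aa, an MHC class II gene, and Trim29 appear in both the Krt5 and the Epcam sets. The likeness is a description of these arrays and rests largely on the gap between tumors and the other groups.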

How the data were processed

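RNA from 12 pools of 3 mouse thymuses or thymic tumors was hybridised to 12 exon arrays. For each transcript cluster the authors deposited a normalized, linear intensity. The normalization software is not given in the sources used here. Values were log2-transformed with no pseudocount, and 24 columns whose pool names match no label were not used. Symbols came from the platform annotation, in which 15618 clusters have 1 symbol, 1370 several and 841 none. Each comparison was fitted on its 8 arrays with limma 3.58.1 in R 4.3.3 (lmFit, eBayes), two-sided, with Benjamini-Hochberg adjustment over all 17829 clusters, and every adjusted p in the text is from this test. The procedure was also run on simulated data with independent noise and known changes, in far fewer clusters than were called in tumors. That run checks the code and does not bear on the calls reported here. The labels call pools biological replicates, and their number limits the precision, since arrays have no read depth. The planned limma fit of ratios to Epcam was replaced by exact permutation tests, because Epcam's own spread entered every ratio.

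The members and the 14 further lists were chosen with earlier results of these data known. From each list the text names up to 3 called genes with the largest rise and up to 3 with the largest fall in tumors against wild-type thymus. Of genes outside this rule, Tnfsf11, Krt16, Krt8 and Krt18 were named after their values were seen. Nearest profiles leave out predicted symbols. Alternatives covered the fit, normalization, a filter on dim clusters, an offset, the replicate block, the prior, the posterior criterion and each array left out. Exon-level values were not analysed here. The replicate numbers did not pair the arrays.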

Additional observations from a re-analysis of the deposited data

Results flagged for a closer look

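Within-group outliers were looked for in 30 sets of 4 arrays, the 10 genes in 3 groups, with Dixon's ratio of the gap to the range. Such a rule marks about 1 set in 20 by chance, and it marked 3 here. Epcam read 9.22 on the third pre-leukemic array, against 8.70 to 8.79 on the other 3. Aire read 8.42 on the first wild-type array, against 8.20 to 8.24 on the other 3. Krt5 read 9.67 on the third wild-type array, against 9.77 to 9.78 on the other 3, which were nearly identical. Leaving out the array concerned changed no call of the gene concerned.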

How the results depend on the processing

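Tumors against wild-type thymus gave 5474 called clusters and 7 members. Leaving out 1 array gave 4177 to 5545 clusters and 7 or 8 members. The posterior criterion gave 886 clusters (351 higher, 535 lower) and 5 members, and quantile normalization gave 6679 clusters and 8 members. For tumors against pre-leukemic thymus, 2855 clusters and 7 members were called. The fit over all 12 arrays gave 4290 clusters and 8 members, Cldn4 being added (adjusted p in limma 0.0338). The posterior criterion gave 364 clusters and 3 members (Krt5, Krt17 and Epcam). Without the arrays of narrowest spread, chosen after seeing the data, 853 clusters and 0 members were called, on 2 arrays a group. Leaving out 1 array gave 1728 clusters (without the first pre-leukemic array) to 2606, with 1856 without the fourth tumor array, and 6 or 7 members. For pre-leukemic against wild-type thymus, every alternative gave 0 members, and clusters ran from 0 to 1, the 1 appearing without the third pre-leukemic array. Signs turned only for differences that were never called. In pre-leukemic against wild-type thymus, Tnfrsf11a turned to 0.000253 with an offset of 16 and ran from -0.0773 to 0.0923 over the left-out arrays. Aire ran from -0.19 to 0.0269, Cd40 from -0.20 to 0.0252, and Cldn3 was -0.0737 without the narrow arrays. In tumors against pre-leukemic thymus, Cldn3 ran from -0.0604 to 0.14 over the left-out arrays. The causes were not tested.

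With the replicate block the members called were 7, 0 and 7 in the 3 comparisons, and the clusters 4210, 0 and 2063. The numbers do not pair the arrays: deviations of same-numbered arrays correlated from -0.55 to 0.42. The planned limma fit on ratios to Epcam called 6, 0 and 6 of 9 members (5 to 9 over the alternatives for the tumor comparisons), but Epcam's spread enters each ratio and these calls were not used. The array number and the dim end of the scale limit what can be seen, above all for Epcam and Cd40 in tumors. Cldn3 and Tnfrsf11a lay near the olfactory guide level in every group.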

Other observations

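A few values outside the comparisons stood on single arrays and were picked out after they were seen. Ttr, a gene of liver and choroid plexus that is on the list of tissue-restricted antigens, read 10.35 on the fourth wild-type array, against 5.97 to 6.10 on the other wild-type arrays. Apoc3, a liver gene of the same list, read 7.64 on that array, against 5.88 to 6.12 on the other wild-type arrays. Crp, also of that list, read 6.95 on the same array, against 5.79 to 6.13 on the other wild-type arrays. Pth read 9.13 on the first pre-leukemic array, against 5.05 to 6.25 on the other pre-leukemic arrays. Neither array was the highest of its group for Aire or Fezf2. In tumors Ccl17, Ccl22 and Plet1 of the other medullary list, Krt8 and Krt18 of the cortical list, Cdh1 of the keratin and junction list and Pparg, an adipocyte gene, ranked the 4 arrays in the same order as Krt5 (6.11, 6.42, 6.61 and 7.96 for Ccl17, and 6.91, 7.17, 7.43 and 7.51 for Pparg).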
